A study of Canis lupus familiaris with 20 samples.

Results

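Retinal ganglion cells are the neurons that carry the output of the eye to the brain, and their axons form the optic nerve. The 10 genes described here are SNCG, THY1 and RBPMS, which are widely used as ganglion cell markers, NEFL, NEFM and NEFH, the neurofilament subunits of large axons, GAP43, STMN2 and NRN1, which act in neurite growth, and UCHL1, an abundant neuronal deubiquitinating enzyme. They were chosen by name: a probe belonged to a gene when the array design gave that gene as its name or named it in the probe's description. This gave 21 probes of the 43603 on the array, for 10 of the 12697 genes that could be named, and each gene is described through the probe with the highest mean signal, with its other probes beside it.

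The study measured retinal RNA of 10 dogs from a research colony with a shared genetic background, with 1 array for each of the 2 eyes. The 5 normal dogs, all male, had working CNGB3, which encodes a subunit of the ion channel that carries the light response of cones: 4 were heterozygous carriers (CNGB3+/m) and dog 3 was CNGB3+/+. The 5 mutant dogs (CNGB3m/m, 2 male and 3 female) were homozygous for a missense mutation of that gene and are a model of achromatopsia, the loss of cone function. In every dog the right eye received 12 µg of ciliary neurotrophic factor (CNTF) into the vitreous and the left eye received phosphate-buffered saline (PBS), and the whole retina was taken 1 week later. The groups are therefore PBS normal, CNTF normal, PBS mutant and CNTF mutant, 5 arrays each. By their labels the normal dogs were 8.9 weeks old and the mutants 10.7 to 11.5 weeks, while the design text of the study puts all at about 11 months. All 3 female dogs were mutants, so genotype cannot be told apart from labelled age and only in part from sex.

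CNTF belongs to the interleukin-6 family of cytokines and signals through gp130 receptors to the kinase JAK and the transcription factor STAT3. In rodents, CNTF and related cytokines are known to promote survival and axon regrowth of injured ganglion cells. Growth-associated proteins such as GAP43 are high in growing axons and fall when the axon has matured, whereas neurofilaments are built up as axons widen. Ganglion cells are a small minority of retinal cells, and in RNA from whole retina fewer cells of a type and less RNA per cell cannot be told apart.

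The probes show which stretch of each transcript was read, and those of the genes with probes that went different ways, or that moved most, are given first. Each probe is a DNA 60-mer printed 5′ to 3′ as deposited, with its last 30 bases shown, or all 60 where it crosses an intron, and positions are of the dog genome build canFam2. Capitals mark AATAAA, the letters of the common polyadenylation signal, which 8.67% of the 43603 probes hold as printed, with 3.01% holding its reverse complement TTTATT. No match says only that the letters are not in that probe.
SNCG main: acatggatgactggcctccaggccctgagc
SNCG second: acatcggtgctccgtgactgggtgatgtag
GAP43 main: atctgaatattAATAAAtcatgagagtaag
GAP43 second: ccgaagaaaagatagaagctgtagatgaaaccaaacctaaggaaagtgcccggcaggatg
THY1: atcacctccagcaagaacgtcactgtgctc
RBPMS main: ttaatgcaatcttcagtggtggctactgtt
RBPMS second: acgtctggcagtctgcctgcctggctagat
NEFL main: gtaccatattctatcctgtgtgccataata
NEFL second: ttgagcccctctgtccttaatccttccagg
UCHL1 main: taaggccttggatgtggtttgtttgacctt
UCHL1 second: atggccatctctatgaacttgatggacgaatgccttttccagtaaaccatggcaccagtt
The main GAP43 probe contains AATAAA and lies at chr33:22811484-22811543 on the plus strand. The second GAP43 probe reads across an intron, with its ends at chr33:22765674-22810889, as does the second UCHL1 probe, at chr3:74228840-74229837.

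Arrays had between 52.0% and 71.8% of their probes well above background. This share was 67.1% to 71.8% in PBS normal and 56.1% to 65.3% in CNTF normal arrays, which do not overlap. It was 60.6% to 66.2% in PBS mutant and 52.0% to 69.9% in CNTF mutant arrays, which do. What this difference adds to the CNTF changes was not tested. The 75th percentile signal of the arrays lay between 291 and 592 intensity units. All levels below are log2 signal relative to that percentile of the same array, so 0 is the level of a fairly abundant transcript and levels of different probes cannot be set against each other. Of the 21 probes, 18 were well above background often enough to be tested and 14 were so on all 20 arrays. A probe was called changed at an adjusted p under 0.05 from limma with Benjamini-Hochberg adjustment over all probes tested, with the dog as a block where eyes were compared. The 5 slides of 4 arrays nearly follow the treatment: only slide 3 holds both, as CNTF eyes of normal dogs 1 and 2 beside PBS eyes of mutant dogs 4 and 5. Each slide also had its own scan date, so slide and scan cannot be told apart. With slide in place of dog as the block, 3 of the 10 genes were called after CNTF in normal dogs and 1 in mutants, where 3.92% and 2.72% of all tested probes were. With slide and dog together 0 of the 10 were called in either, where 0.0% and 0.16% of all tested probes were.

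In normal dogs, 1 week after the CNTF injection, SNCG, GAP43, THY1, RBPMS and UCHL1 were higher and NEFL was lower, so 5 genes rose, 1 fell and 4 were not called. In mutant dogs SNCG, GAP43, THY1 and RBPMS rose and NEFL and NEFM fell, so 4 rose, 2 fell and 4 were not called. These counts stand against a broad change: 51.2% of the 29334 probes tested were called in normal dogs, 23.6% higher and 27.6% lower, and 28.9% were called in mutant dogs, 11.6% higher and 17.3% lower. The median change of the 10 genes was 0.37 in normal dogs and 0.092 in mutants, beside -0.090 and -0.090 over all probes. CNTF and PBS eyes did not overlap for 4 of the 10 genes in each genotype, namely SNCG, GAP43, THY1 and NEFL. Among all tested probes 30.0% did not overlap in normal dogs and 14.8% in mutants. SNCG, GAP43, THY1 and RBPMS rose in both genotypes and NEFL fell in both, which 9.36% and 9.81% of all tested probes did.

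**Figure D1:**
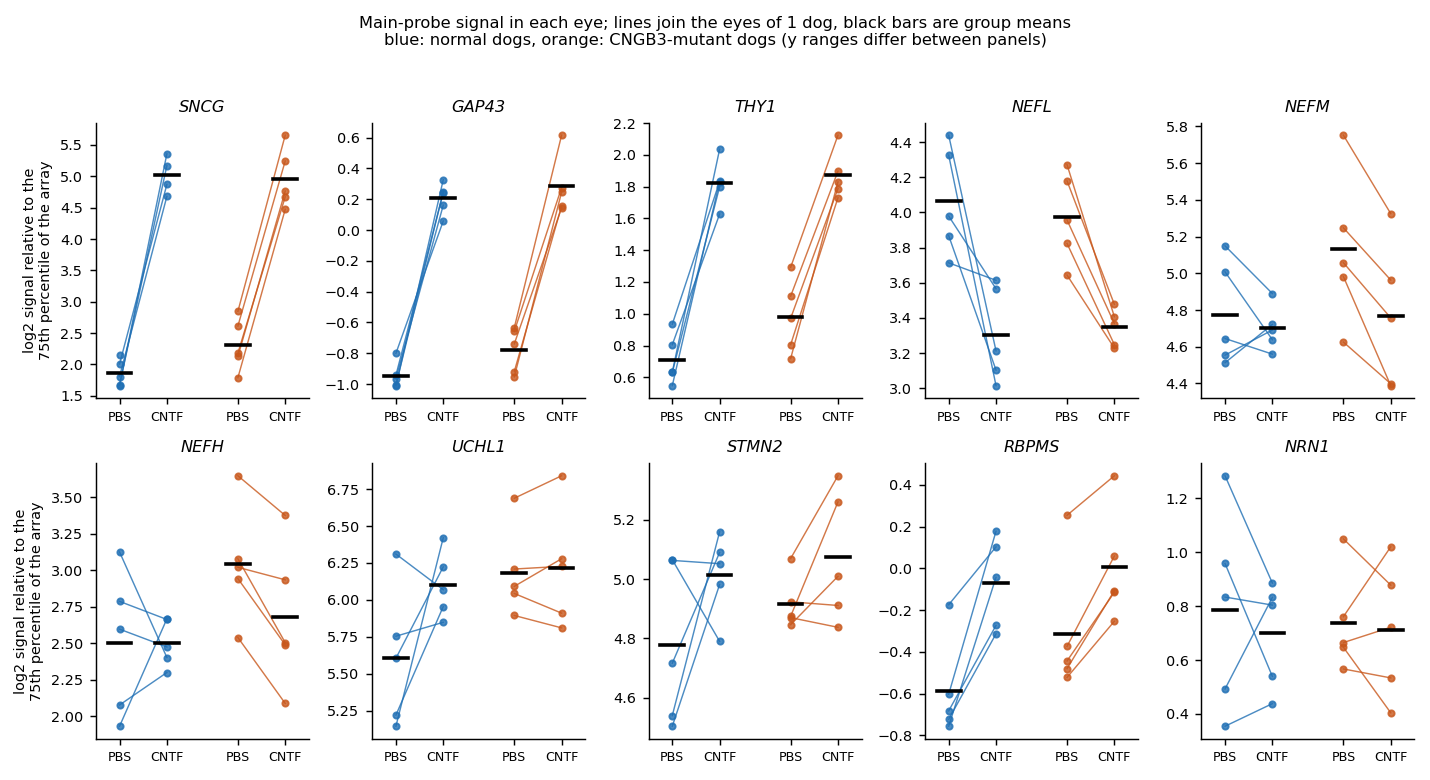
Log2 signal relative to the array's 75th percentile (vertical axis) for the main probe of each of the 10 genes, 1 point per eye in the 4 groups, with lines joining the eyes of a dog and black bars for group means. SNCG, GAP43 and THY1 are higher in all measured CNTF eyes than in any PBS eye of the same genotype, and NEFL is lower.

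SNCG encodes gamma-synuclein, a small soluble protein abundant in ganglion cell bodies and axons. Its main probe lies at chr4:37806056-37806115 on the plus strand. In PBS eyes of normal dogs 1 to 5 its level was 2.15, 1.81, 1.66, 2.01 and 1.67, and in their CNTF eyes it was 4.68, 5.36, 4.87 and 5.17 in dogs 2 to 5, the spot of dog 1 having been set aside as an outlier by the scanner software. In PBS eyes of mutant dogs 1 to 5 it was 1.79, 2.85, 2.13, 2.61 and 2.18, and in their CNTF eyes 4.47, 5.66, 4.77, 5.25 and 4.67. Every measured CNTF eye was above every PBS eye, with gaps of 2.54 between the groups in normal dogs and 1.63 in mutants. The rise was 3.23 ± 0.15 on the log2 scale (SE, n = 4 dogs, the fit leaving out the missing spot), or 9.40-fold, in normal dogs (limma adjusted p = 3.11e-07) and 2.65 ± 0.13 (SE, n = 5), or 6.28-fold, in mutants (limma adjusted p = 7.25e-07). It was the largest change among the 10 genes, and 0.924% of all probes in normal dogs and 1.21% in mutants were called and moved at least as far.

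The second SNCG probe carries the same design name but did not show this rise. It lies 4154 bases from the first, at chr4:37810270-37810329 on the plus strand, and was well above background on 1 of 20 arrays, a PBS eye of a normal dog. Its mean signal was -4.71 ± 0.45 in PBS normal, -5.42 ± 0.34 in CNTF normal, -5.62 ± 0.60 in PBS mutant and -5.27 ± 0.32 in CNTF mutant eyes (SD, n = 5 each). The exon each probe reads was not assigned, and the rise of SNCG rests on the main probe. With slide as the block the rise was 2.87 in normal dogs (limma adjusted p = 0.0145) and 1.62 in mutants (limma adjusted p = 0.219), which ends the call in mutants, and within slide 3 the single measured CNTF eye was 2.28 above the mean of the 2 PBS eyes, which are of the other genotype.

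Genes of microglia and macrophages also rose after CNTF, as did 23.6% of all tested probes in normal dogs and 11.6% in mutants. Of 7 such markers 6 were tested: 6 rose and none fell in normal dogs (median 3.12), and 5 rose and 1 was not called in mutants (median 2.49). Their summed linear signal, in multiples of the array's 75th percentile, ranged from 4.18 to 5.48 in PBS normal, 15.4 to 23.5 in CNTF normal (4 arrays with every marker measured), 5.82 to 8.22 in PBS mutant and 15.9 to 24.6 in CNTF mutant eyes. Examples are CSF1R, the receptor that keeps microglia alive, at 3.12 ± 0.16 and 2.55 ± 0.16, and TYROBP, a microglial signalling adaptor, at 4.19 ± 0.24 and 3.43 ± 0.24 (SE, n = 5 dogs each, normal then mutant). Their part in the SNCG result was not tested.

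THY1, a glycosylphosphatidylinositol-anchored surface protein that in the retina marks ganglion cells, was read by 1 probe, at chr5:17513482-17513541 on the plus strand. Its level in dogs 1 to 5 was 0.93, 0.81, 0.55, 0.63 and 0.63 in PBS normal and 1.83, 1.63, 1.83, 1.80 and 2.04 in CNTF normal eyes. In mutants it was 0.81, 1.29, 0.97, 1.11 and 0.72 in PBS and 1.73, 2.12, 1.79, 1.90 and 1.83 in CNTF eyes. All CNTF eyes lay above all PBS eyes of either genotype. It rose by 1.12 ± 0.11 (SE, n = 5), or 2.17-fold, in normal dogs (limma adjusted p = 1.58e-05) and by 0.89 ± 0.11, or 1.86-fold, in mutants (limma adjusted p = 9.23e-05). With slide as the block the call ended in mutants, at 0.66 (limma adjusted p = 0.406).

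RBPMS is an RNA-binding protein found in nearly all mammalian ganglion cells and also in pericytes and muscle. Its main probe, at chr16:36750172-36750231 on the minus strand, is tied to RBPMS only by its description. In normal dogs 1 to 5 the level was -0.17, -0.72, -0.60, -0.68 and -0.76 in PBS and 0.10, -0.31, 0.18, -0.27 and -0.043 in CNTF eyes. In mutants it was -0.48, 0.25, -0.44, -0.37 and -0.52 in PBS eyes and -0.11, 0.44, -0.12, 0.059 and -0.25 in CNTF eyes. The CNTF eye was higher in 5 of 5 dogs of each genotype, although the groups overlap, with the PBS eyes of normal dog 1 and mutant dog 2 the high PBS values. The rise was 0.52 ± 0.097 (SE, n = 5) in normal dogs (limma adjusted p = 0.00155) and 0.32 ± 0.097 in mutants (limma adjusted p = 0.0295). The call in mutants ended with the same sign in 9 of 21 alternatives. Among them were normexp background correction (limma adjusted p = 0.151), no dog block (limma adjusted p = 0.195) and the fits without mutant dog 1, 3, 4 or 5 (values of 0.29 to 0.33, limma adjusted p up to 0.0961). In 1 more, all probes of the gene averaged, the sign turned and the call ended (-0.059, limma adjusted p = 0.748). With slide as the block the call ended in both genotypes, at 0.88 in normal dogs (limma adjusted p = 0.287) and 0.28 in mutants (limma adjusted p = 0.918).

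The second RBPMS probe, 5871 bases away at chr16:36744241-36744300 on the minus strand, did not rise with the main probe. It was above background on 5 of 5 PBS normal, 3 of 5 CNTF normal, 3 of 5 PBS mutant and 2 of 5 CNTF mutant arrays, so it entered the test only through the group where it is highest, and its values in the other groups lie partly at background. Its fitted change was -0.62 ± 0.18 in normal dogs and -0.44 ± 0.18 in mutants (SE, n = 5), given as a description only.

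The neurofilament light, medium and heavy chains assemble into the filaments that fill large axons. NEFL, the light chain, fell. Its main probe, at chr25:35458648-35458707 on the plus strand, gave 4.33, 3.98, 4.44, 3.71 and 3.87 in PBS and 3.01, 3.57, 3.21, 3.61 and 3.10 in CNTF eyes of normal dogs 1 to 5. In mutants it gave 4.18, 3.96, 3.82, 3.64 and 4.27 in PBS and 3.48, 3.37, 3.25, 3.23 and 3.41 in CNTF eyes. Every CNTF eye was below every PBS eye of its genotype, by narrow gaps of 0.10 and 0.17. The change was -0.76 ± 0.16 (SE, n = 5), 1.70-fold lower, in normal dogs (limma adjusted p = 0.00343) and -0.63 ± 0.16, 1.55-fold lower, in mutants (limma adjusted p = 0.0147).

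The second NEFL probe, at chr25:35456912-35456971, also fell, by 0.48 ± 0.13 in normal dogs (limma adjusted p = 0.00987) and 0.65 ± 0.13 in mutants (limma adjusted p = 0.00279), again with no overlap. Another probe, named by description only, was above background on 3 arrays and the last on 0, so neither was tested. The call of the main probe ended with slide as the block (-0.55, limma adjusted p = 0.472, and -0.50, limma adjusted p = 0.761), and in mutants without dog 5 (-0.57, limma adjusted p = 0.0547).

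NEFM, the medium chain, was read by 3 probes. Its main probe, at chr25:35483284-35483343 on the minus strand, ranged from 4.51 to 5.15 in PBS normal, 4.56 to 4.89 in CNTF normal, 4.63 to 5.75 in PBS mutant and 4.39 to 5.32 in CNTF mutant eyes. All 4 ranges overlap. It was lower in the CNTF eye of 5 of 5 mutant dogs, by 0.37 ± 0.11 (SE; limma adjusted p = 0.0243), while in normal dogs the change was -0.074 ± 0.11 and was not called (limma adjusted p = 0.578). The other probes gave -0.44 and -0.43 in mutants and were called (limma adjusted p = 0.0321 and 0.00825). The call of the main probe in mutants ended in 9 of 21 alternatives. Among them were slide as the block, and slide and dog together. It also ended with normexp background correction (-0.59), with median scaling (-0.30), without the dog block and without mutant dog 2, 4 or 5. NEFM was called lower in normal dogs in 2 of 21 alternatives, namely quantile normalization (-0.38, limma adjusted p = 0.0195) and the deposited values.

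NEFH, the heavy chain, had group means of 2.50 ± 0.50 in PBS normal, 2.50 ± 0.16 in CNTF normal, 3.05 ± 0.40 in PBS mutant and 2.68 ± 0.49 in CNTF mutant eyes (SD, n = 5) on its probe at chr26:25764172-25764231 on the plus strand. The CNTF change was -0.0022 ± 0.17 in normal dogs and -0.37 ± 0.17 in mutants (SE, n = 5; 95% interval -0.74 to 0.0058), and neither was called (limma adjusted p = 0.992 and 0.131). The CNTF eye was lower in 5 of 5 mutant dogs.

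GAP43, the growth cone phosphoprotein that is raised in regrowing axons, was higher after CNTF in every dog. Its main probe gave -0.80, -1.01, -0.96, -0.94 and -1.01 in PBS and 0.059, 0.25, 0.16, 0.24 and 0.33 in CNTF eyes of normal dogs 1 to 5. In mutants it gave -0.63, -0.66, -0.74, -0.95 and -0.92 in PBS and 0.62, 0.28, 0.14, 0.25 and 0.16 in CNTF eyes. All PBS eyes were below 0 and all CNTF eyes above it, and the replicate spread was small beside that gap. The rise was 1.15 ± 0.098 (SE, n = 5), or 2.22-fold, in normal dogs (limma adjusted p = 6.86e-06) and 1.07 ± 0.098, or 2.10-fold, in mutants (limma adjusted p = 1.46e-05).

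The intron-crossing GAP43 probe gave the same direction and a close size, 1.05 ± 0.10 in normal dogs (limma adjusted p = 2.10e-05) and 0.96 ± 0.10 in mutants (limma adjusted p = 4.43e-05). With slide as the block the main probe was still called, at 1.42 and 1.46 (limma adjusted p = 0.00155 and 0.00182), and within slide 3 the CNTF eyes were 1.09 above the PBS eyes of the other genotype. With slide and dog together the rise was 1.47 and 1.38 and was not called (limma adjusted p = 0.144 and 0.170).

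The other growth genes moved less. STMN2 encodes stathmin-2, a microtubule-destabilising protein of growth cones, with 3 probes here. The main probe, at chr29:30103255-30103314 on the plus strand, ranged from 4.50 to 5.07 in PBS normal, 4.79 to 5.16 in CNTF normal, 4.85 to 5.07 in PBS mutant and 4.84 to 5.35 in CNTF mutant eyes, all overlapping. It changed by 0.24 ± 0.13 in normal dogs and 0.16 ± 0.13 in mutants (SE, n = 5), which was not called (limma adjusted p = 0.153 and 0.416). Without normal dog 1 it was 0.37 in normal dogs and was called (limma adjusted p = 0.0340). The other probes gave 0.16 ± 0.16 and 0.24 ± 0.14 in normal dogs (limma adjusted p = 0.426 and 0.169) and 0.19 ± 0.25 and 0.075 ± 0.14 in mutants (limma adjusted p = 0.620 and 0.737). The value of 0.19 rests on 2 mutant dogs with both eyes measured. NRN1 encodes neuritin, a surface-anchored protein that promotes neurite outgrowth. Its level was 0.78 ± 0.37 in PBS normal, 0.70 ± 0.20 in CNTF normal, 0.74 ± 0.19 in PBS mutant and 0.71 ± 0.25 in CNTF mutant eyes (SD, n = 5), on its probe at chr35:9076657-9076716 on the minus strand. The change was not called, with 95% intervals of -0.36 to 0.19 in normal dogs and -0.30 to 0.25 in mutants (limma adjusted p = 0.588 and 0.902).

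UCHL1 encodes a ubiquitin hydrolase that is abundant in neurons. Its main probe, at chr3:74223064-74223123 on the minus strand, gave 6.31, 5.75, 5.60, 5.22 and 5.14 in PBS and 6.07, 5.85, 6.22, 5.96 and 6.42 in CNTF eyes of normal dogs 1 to 5. In mutants it gave 6.09, 6.69, 6.04, 6.21 and 5.89 in PBS and 6.28, 6.84, 5.91, 6.23 and 5.81 in CNTF eyes. The groups overlap in both genotypes, and normal dog 1 had the highest PBS value of its group and was the only normal dog whose CNTF eye was lower. The change was 0.50 ± 0.18 in normal dogs (SE, n = 5; limma adjusted p = 0.0381) and 0.028 ± 0.18 in mutants (limma adjusted p = 0.929), and the second probe gave 0.42 ± 0.13 (limma adjusted p = 0.0233) and -0.11 ± 0.13 (limma adjusted p = 0.584). The call in normal dogs ended in 11 of 21 alternatives, among them quantile normalization, at 0.10 (limma adjusted p = 0.556). Within slide 3 the difference was -0.093, but it sets CNTF eyes of normal dogs against PBS eyes of mutants. Treatment and genotype cannot be told apart in that value. The call also ended without normal dog 3, 4 or 5 or mutant dog 5, and without normal dog 5 the value was 0.30 (limma adjusted p = 0.150).

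**Figure D2:**
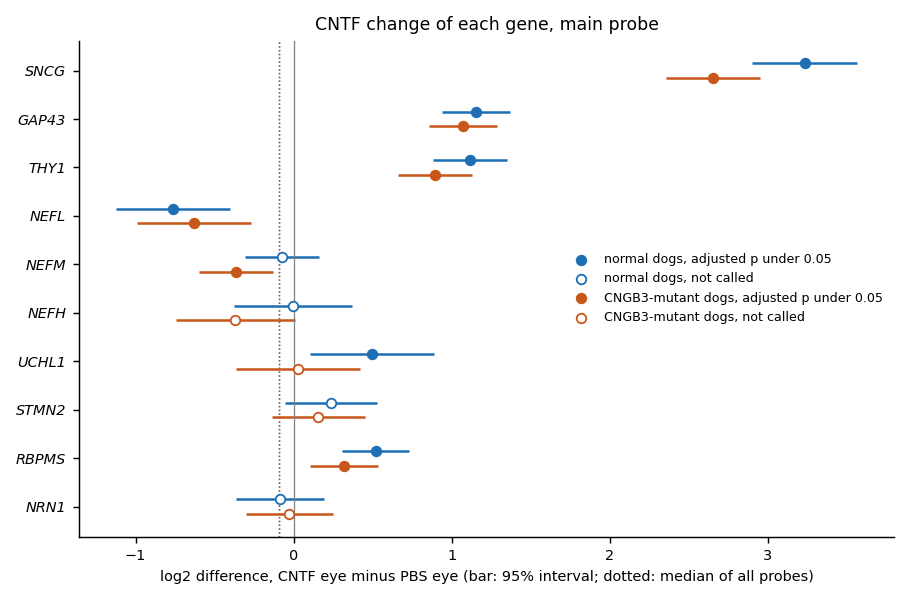
CNTF minus PBS change (log2, horizontal axis) of the main probe of each gene in normal and mutant dogs, with 95% intervals, and a dotted line at the median change of all probes. SNCG stands at 3.23 and 2.65, GAP43 and THY1 near 1, and the neurofilament genes at or below 0.

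**Figure D3:**
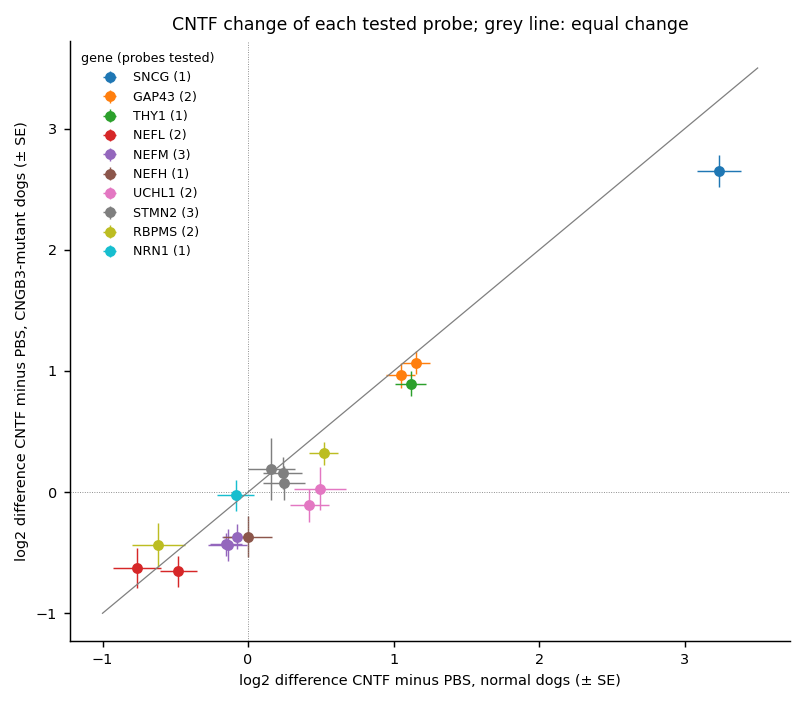
CNTF change (log2) in normal dogs (horizontal axis) and mutant dogs (vertical axis) of the 18 tested probes of the 10 genes, with SE bars, and a grey line of equal change. The 2 RBPMS probes lie on opposite sides of 0, the lower being partly at background, while the 2 GAP43 probes lie together.

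Whether the response to CNTF differed with genotype was tested as the difference of the paired changes, mutant minus normal. None of the 10 genes was called, and 0.0% of the 29334 probes were, although 10163 probes had an unadjusted p under 0.05. SNCG had the smallest adjusted p among the 10: its rise was smaller in mutants by 0.58 ± 0.20 (SE; 95% interval of the difference -1.03 to -0.14; limma adjusted p = 0.103). For GAP43 the difference was -0.084 ± 0.14 (interval -0.39 to 0.22), for THY1 -0.22 ± 0.15 (interval -0.55 to 0.11) and for NEFL 0.13 ± 0.23 (interval -0.38 to 0.65). UCHL1 was called in normal dogs and NEFM in mutants, but their differences, -0.47 ± 0.25 (interval -1.03 to 0.088) and -0.29 ± 0.15 (interval -0.62 to 0.038), were not called.

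Mutant and normal retinas were compared within each treatment, in 10 arrays of 10 dogs. Slides nearly follow genotype here. In PBS eyes only slide 2 holds both genotypes, as normal dog 5 beside mutant dogs 1 to 3. In CNTF eyes only slide 4 does, as normal dogs 3 to 5 beside mutant dog 1. Genotype can therefore be told apart from slide only in part. In PBS eyes none of the 10 genes was called, and 0.0272% of 29422 probes were, with 10183 at an unadjusted p under 0.05. SNCG was 0.45 ± 0.20 higher in mutants (SE; limma adjusted p = 0.136), THY1 0.27 ± 0.14, NEFH 0.54 ± 0.26 and UCHL1 0.58 ± 0.23, with groups that overlap in each case. The PBS comparison turns on normal dog 1: without it 6292 probes were called, UCHL1 among them at 0.75 (limma adjusted p = 0.0362). In CNTF eyes none of the 10 was called, and 0.00681% of 29355 probes were, with 1644 at an unadjusted p under 0.05. Differences in CNTF eyes ran from -0.057 to 0.18, and for SNCG the 95% interval was -0.62 to 0.51.

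Few of the genes that define ganglion cells beyond these 10 could be measured. The transcription factors POU4F2 and POU4F3 were above background on 0 of 20 arrays, and no probe could be named for POU4F1, ISL2 or SLC17A6, so the ganglion cell markers tested were all among the 10 genes. Of 32 other ganglion cell genes 12 were tested: in normal dogs 4 rose, 5 fell and 3 were not called (median -0.27), and in mutants 3 rose, 2 fell and 7 were not called (median -0.015), beside a median of -0.090 over all probes in both genotypes. For this and the next 4 lists the shares of all tested probes to set the counts against are 23.6% higher and 27.6% lower in normal dogs and 11.6% higher and 17.3% lower in mutants. OPN4, the melanopsin of intrinsically photosensitive ganglion cells, rose by 1.29 ± 0.11 and 1.14 ± 0.11, and TPPP3, a tubulin-binding protein, by 1.48 ± 0.14 and 0.99 ± 0.14 (SE, n = 5, normal then mutant). SOX12, a neuronal transcription factor, rose by 0.84 ± 0.099 and 0.53 ± 0.099. CHRNA6, a nicotinic receptor subunit, was called lower in both genotypes, but it was above background on 5 of 5 PBS arrays of each genotype and on only 2 of 5 CNTF normal and 3 of 5 CNTF mutant arrays, so its fitted changes of -0.81 ± 0.15 and -0.56 ± 0.15 rest partly on arrays at background. PVALB, a calcium-binding protein, fell in mutants (-0.80 ± 0.13).

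Among 12 tested relatives of the 10 genes, 3 rose, 1 fell and 8 were not called in normal dogs (median 0.080) and 1 rose, 1 fell and 10 were not called in mutants (median 0.0077). PRPH, peripherin, an intermediate filament protein that rises in injured neurons of rodents, was higher by 1.07 ± 0.098 and 1.01 ± 0.098. INA, alpha-internexin, a filament partner of the neurofilaments, was lower by 0.73 ± 0.28 in normal dogs (limma adjusted p = 0.0461) and changed by -0.79 ± 0.28 in mutants, where it was not called (limma adjusted p = 0.0522). SNCB, beta-synuclein, fell in mutants (-0.40 ± 0.11) and was not called in normal dogs (0.050 ± 0.11). MARCKS, a membrane-bound actin regulator (0.83 ± 0.13), and STMN1, stathmin-1 (0.26 ± 0.088), rose in normal dogs and were not called in mutants (0.15 ± 0.13 and 0.17 ± 0.088). UCHL3, a relative of UCHL1, changed by 0.11 ± 0.20 and 0.54 ± 0.20 and was called in neither.

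Of 24 tested genes of the neuronal cytoskeleton and axon, 9 rose, 7 fell and 8 were not called in normal dogs (median 0.14) and 3 rose, 6 fell and 15 were not called in mutants (median -0.041). The adhesion molecules NRCAM (1.34 ± 0.10 and 1.17 ± 0.10) and CHL1 (0.87 ± 0.12 and 0.97 ± 0.12) rose, as did MAP1B, a microtubule protein of growing axons (0.35 ± 0.088 and 0.37 ± 0.088). ANK3, ankyrin-G of the axon initial segment, fell (-0.76 ± 0.15 and -0.56 ± 0.15), and so did the dynein subunit DYNC1I1 (-0.36 ± 0.092 and -0.46 ± 0.092). DPYSL5, a collapsin response mediator protein, fell in normal dogs (-0.65 ± 0.12). MAPT, the microtubule protein tau, rose in normal dogs (0.65 ± 0.16) and was not called in mutants (-0.049 ± 0.16).

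Of 28 tested genes of axon regrowth and nerve injury, 13 rose, 3 fell and 12 were not called in normal dogs (median 0.35) and 13 rose, 4 fell and 11 were not called in mutants (median 0.28). STAT3, the transcription factor through which CNTF signals, rose by 2.18 ± 0.12 and 1.60 ± 0.12. MYC rose by 2.16 ± 0.13 and 1.41 ± 0.13, and the injury transcription factors ATF3 (0.66 ± 0.11 and 0.73 ± 0.11) and KLF6 (0.67 ± 0.10 and 0.71 ± 0.10) also rose. GFRA1, a receptor subunit for glial cell line-derived neurotrophic factor, rose by 0.99 ± 0.11 and 0.39 ± 0.11. The peptide gene CRH was called lower in both, at -0.98 ± 0.11 and -0.78 ± 0.11. Many of these genes are also expressed in glia, and which cells carried the change was not tested.

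Of 21 tested inhibitors of axon growth and their receptors, 4 rose, 5 fell and 12 were not called in normal dogs (median -0.049) and 2 rose, 5 fell and 14 were not called in mutants (median -0.32). OMG, the oligodendrocyte-myelin glycoprotein, was called lower in both genotypes (-0.88 ± 0.17 and -0.55 ± 0.17), as was ROBO2, a receptor for the Slit guidance proteins (-0.42 ± 0.088 and -0.46 ± 0.088). RTN4, which encodes Nogo, was lower in normal dogs (-0.45 ± 0.10) and was not called in mutants (-0.32 ± 0.12). NEO1, neogenin, rose (0.77 ± 0.13 and 0.49 ± 0.13), and UNC5B, a netrin receptor, rose in normal dogs (0.86 ± 0.19). The semaphorin SEMA4D fell (-0.49 ± 0.15 and -0.61 ± 0.15), and in mutants the semaphorin receptor PLXNA2 fell (-0.79 ± 0.16) while its partner NRP1 rose (0.49 ± 0.12). No gene of these 5 lists was called for the difference between genotypes or between mutant and normal retinas in either treatment.

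Markers of other cell types were counted as well, and their part in the results above was not tested. These counts stand against 23.6% of all tested probes higher and 27.6% lower in normal dogs. In mutants the shares were 11.6% and 17.3%. Of amacrine cell markers, 0 rose and 6 fell of 9 in normal dogs and 1 and 6 in mutants (medians -0.73 and -0.60), and their summed signal ranged from 8.41 to 9.64 in PBS normal, 5.81 to 6.37 in CNTF normal, 8.37 to 10.6 in PBS mutant and 5.55 to 6.47 in CNTF mutant eyes. Displaced amacrine cells share the ganglion cell layer. Of cone markers, 0 rose and 6 fell of 6 in normal dogs and 0 and 6 in mutants, of rod markers 1 rose and 2 fell of 7 in normal dogs and 0 and 5 in mutants, of bipolar cell markers 0 rose and 4 fell of 7 in normal dogs and 0 and 4 in mutants and of horizontal cell markers 0 rose and 3 fell of 4 in normal dogs and 0 and 1 in mutants. Of Müller glia markers, 3 rose and 1 fell of 5 in normal dogs and 1 and 2 in mutants, and of astrocyte markers, which mark the nerve fibre layer, 1 rose and 1 fell of 4 in normal dogs and 1 and 2 in mutants. Of markers of optic nerve myelin, 1 rose and 1 fell of 5 in normal dogs and 1 and 1 in mutants, of endothelium and pericytes 3 rose and 1 fell of 6 in normal dogs and 0 and 0 in mutants, and of fibroblasts and meninges 2 rose and 1 fell of 5 in normal dogs and 2 and 1 in mutants. The medians of the fibroblast and meninges markers were 0.15 and 0.17, but their summed signal was higher in CNTF eyes without overlap. In normal dogs the sum ranged from 1.99 to 2.96 in PBS and 6.28 to 9.83 in CNTF eyes. In mutants it ranged from 2.16 to 4.91 in PBS and 5.31 to 10.9 in CNTF eyes. Of T cell markers, 2 rose and 1 fell of 6 in normal dogs and 2 and 1 in mutants, of B cell markers 0 rose and 2 fell of 4 in normal dogs and 0 and 2 in mutants, of retinal pigment epithelium markers 0 rose and 3 fell of 4 in normal dogs and 0 and 2 in mutants, and of Schwann cell markers 0 rose and 1 fell of 2 in normal dogs and 0 and 0 in mutants.

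**Figure D4:**
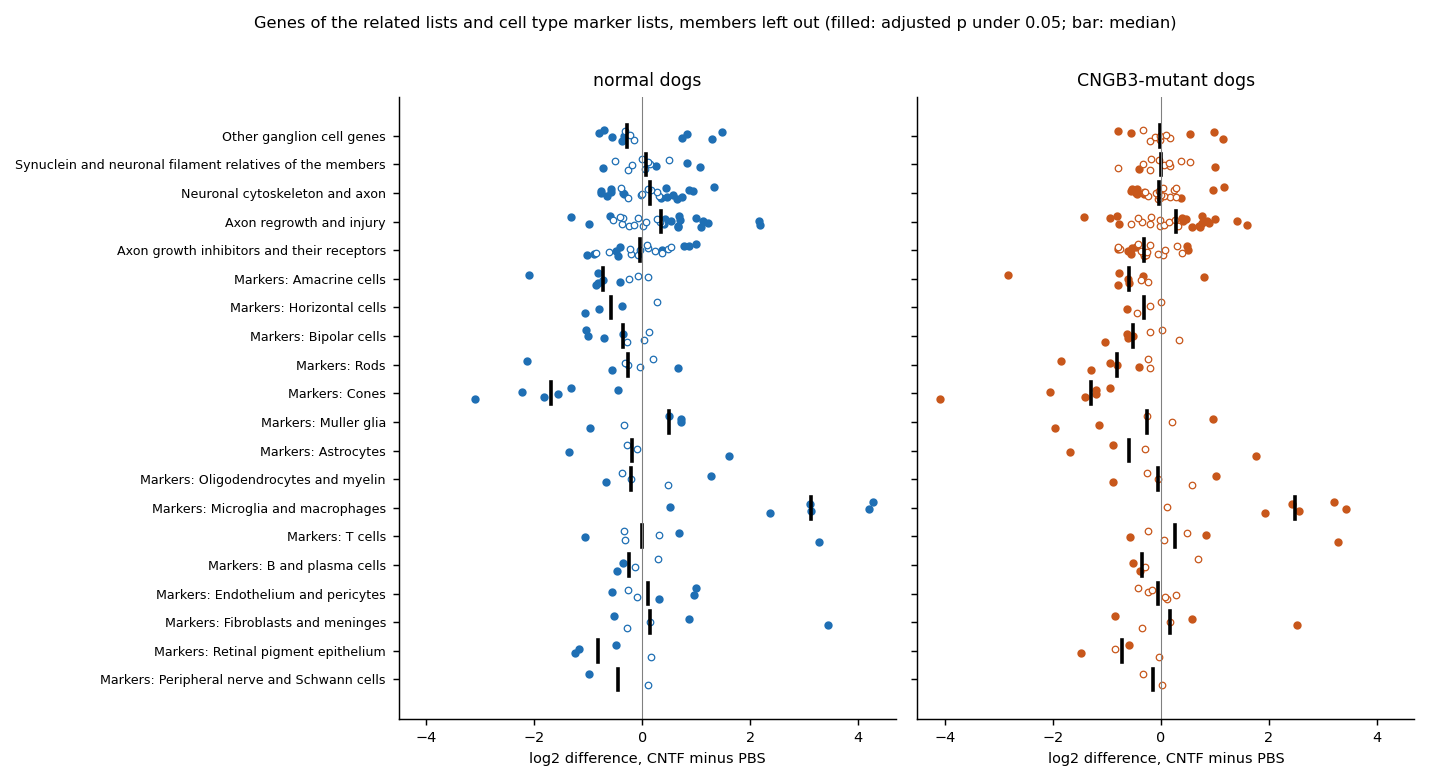
CNTF change (log2, horizontal axis) of each tested gene of the 5 related gene lists and of the cell type markers, with the 10 genes left out, in normal and mutant dogs. Filled points were called, and the bar is the list's median, which is highest for the microglia and macrophage markers, at 3.12 and 2.49, and lowest for the cone markers, at -1.69 and -1.31.

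For the genes called in both genotypes in the same direction, the named genes with the most similar pattern over the arrays were sought. The search covered the 7044 genes whose main probe was above background on every array, so genes at background in PBS eyes could not appear. Likeness was measured by the root mean square difference of log2 values after each gene was centred on its mean. The nearest to SNCG were C1R (0.193), IFI30 (0.224), ITGAM (0.229), CSF1R (0.232) and S100A6 (0.232), over 19 arrays, where the median over all these genes was 1.50. C1R is a complement protease, ITGAM and CSF1R are surface proteins of microglia and macrophages, and IFI30 is a lysosomal reductase of antigen-presenting cells. S100A6 is one of the S100 calcium-binding proteins. The nearest to GAP43 were TMEM100 (0.143), GPX1 (0.160), NCAPH (0.162), PGS1 (0.167) and BCL6 (0.172), against a median of 0.631. The nearest to THY1 were MSTO1 (0.110), TMSB10 (0.123), RILPL2 (0.125), MED11 (0.127) and PGS1 (0.134), against a median of 0.584.

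For NEFL the nearest genes were GAD2 (0.158), CDAN1 (0.179), GUCY1B1 (0.199), PPP1CC (0.200) and C1H9orf40 (0.206), against a median of 0.527. GAD2, which makes the transmitter GABA in amacrine cells, fell by 0.82 ± 0.11 in normal dogs and 0.60 ± 0.11 in mutants (SE, n = 5), close to NEFL itself. For RBPMS they were ZFAND2B (0.125), VSIG10 (0.128), CAPNS1 (0.131), PSMB2 (0.131) and ATP6V1E1 (0.131), against a median of 0.413. These distances describe 20 arrays that share slides and treatment, so genes with a CNTF change of like size lie near each other.

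**Figure D5:**
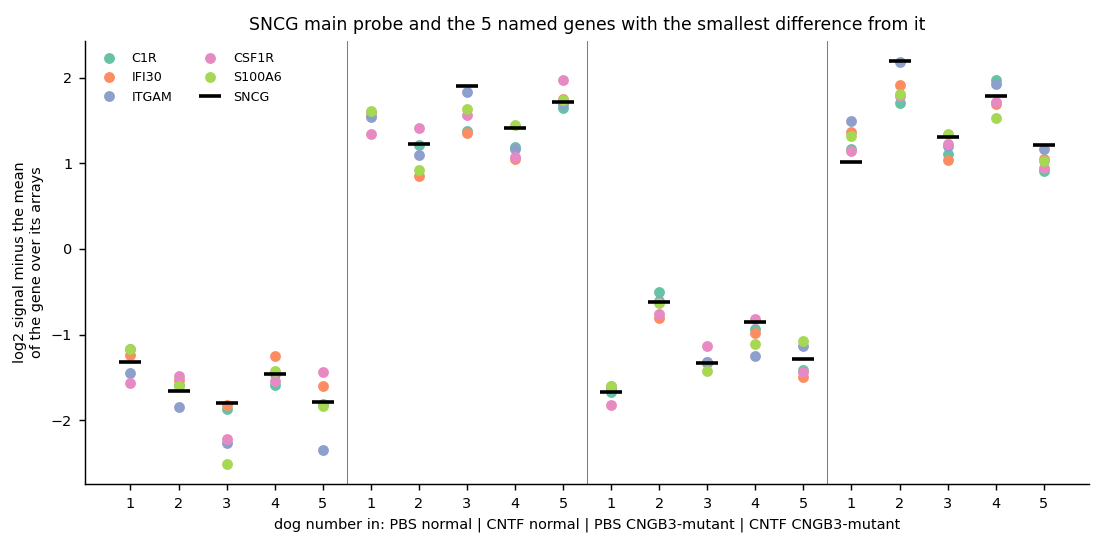
Log2 signal centred on each gene's mean (vertical axis) of SNCG and the 5 genes with the nearest pattern, over the 20 arrays in 4 groups (horizontal axis). SNCG has no value for CNTF normal dog 1, and all 6 genes are low in PBS eyes and high in CNTF eyes of both genotypes.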

How the data were processed

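RNA of 20 dog retinas was measured on single-colour Agilent arrays. The deposited array files hold spot intensity; per the file headers it was background-subtracted by Agilent Feature Extraction 9.5.3.1. The authors' deposited value table holds log2 values, which were used only as an alternative; the submitters' processing notes name Partek 6.4. Probe positions are canFam2, per the file headers, and older gene names were updated through a RefSeq gene table, with unnamed and LOC-named genes left out of the search for similar patterns.

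Control and outlier spots were removed, and log2 intensity was taken relative to each array's 75th percentile. Probes stayed in when 4 or more of the 5 arrays of any group had them well above background, which left 29466 of 43603, and were tested when at least 3 arrays of each group measured them. Tests used limma 3.58.1 in R 4.3.3, two-sided, with Benjamini-Hochberg adjustment over all probes. CNTF and PBS eyes were compared on all 20 arrays with dog as a block, and genotypes on 10 arrays per treatment. Figures used matplotlib 3.10.9 in Python 3.11.15, and the fits were tested on simulated data first.

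Eyes were paired by the numbers in the sample titles, with matching sex, age and genotype. The normal dogs all share sex and labelled age, which therefore do not tell them apart. Deviations from group means of the 2 eyes of a dog correlated with r from -0.15 to 0.69 across probes, and for 5 of 10 dogs the own fellow eye matched best. In normal dogs 1 to 5 r was 0.12, -0.063, -0.15, 0.29 and -0.071, and only dog 4 matched best. In mutant dogs 1 to 5 r was 0.19, 0.58, 0.35, 0.47 and 0.69, and all but dog 1 matched best. The check thus gives little support to the pairing in normal dogs. Replicates are separate dogs, and their number limits precision.

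The genes and lists were chosen with earlier results of these data known. All 10 genes were named with every probe; from each other list the 4 genes with the smallest adjusted p in each CNTF comparison and the first gene of the list could be named. A gene that this rule names is not reported here. The remaining ganglion cell markers were named for the check of cell type, after their values were seen. Background correction, scaling, filters, outlier spots, blocks and single dogs were varied.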

Additional observations from a re-analysis of the deposited data

Results flagged for a closer look

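In 3 of 60 sets of values (the main probe of each gene in the 4 groups, and its change by dog in the 2 genotypes), a single array stood apart from the other 4 by Dixon's test at the 95% level, and chance gives about 1 in 20. GAP43 in the CNTF eye of mutant dog 1 was 0.62, above the other 4 CNTF mutant eyes at 0.14 to 0.28. RBPMS in the PBS eye of normal dog 1 was -0.17, above the other 4 at -0.76 to -0.60. RBPMS in the PBS eye of mutant dog 2 was 0.25, above the other 4 at -0.52 to -0.37.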

How the results depend on the processing

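The rises of SNCG, GAP43 and THY1 and the fall of NEFL kept their direction in both genotypes under every alternative run. The slides nearly follow treatment, and genotype within each treatment, and set the main limit. With slide as the block the probes called went from 15014 to 1149 in normal dogs (864 higher, 285 lower) and from 8473 to 798 in mutants (501 and 297), and the 10 genes called from 6 to 3 and from 6 to 1. With slide and dog together 0 and 47 probes (37 higher, 10 lower) and 0 and 0 of the 10 genes were called. Without the replicate block 11518 probes were called in normal dogs (5755 higher, 5763 lower). Normexp background correction gave 5757 (3520 higher) and 3296 (1845 higher). It moved the median of all probes from -0.090 to 0.092 in normal dogs and to 0.17 in mutants. The share of calls that were higher went from 46.0% to 61.1% with normexp and 59.0% with median scaling in normal dogs, and from 40.2% to 56.0% and 49.9% in mutants. For the genotype difference of the change, slide as the block gave 69 calls and slide with dog 44, against 0. In PBS eyes 8 calls became 2 with normexp, 1 with quantile normalization, 2 with median scaling, 1 with the deposited values, 4 with no filter, 3 with outlier spots kept, 2 with slide as a block, 30 in male dogs only and 147 with dog as a random block. In CNTF eyes 2 calls became 0 under each of normexp, quantile, median scaling, the deposited values, no filter and the filter on all 20 arrays, but 103 with slide as a block, 5 in male dogs only and 22 with dog as a random block. Leaving out 1 dog at a time gave 10950 to 14941 calls in normal dogs, 6382 to 8599 in mutants, 0 to 4 for the genotype difference, 1 to 6292 in PBS eyes (most without normal dog 1) and 0 to 60 in CNTF eyes, with 5 to 7, 3 to 6, 0, 0 to 1 and 0 of the 10 genes called. The smallest counts of genes in mutants came without dog 5. The cause of these changes was not tested.

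Among the single genes, signs turned mainly for differences that were not called, the called exceptions being RBPMS averaged with a probe partly at background and UCHL1 within slide 3. The slide 3 values set CNTF eyes of normal dogs against PBS eyes of mutants, so they also hold the genotype difference. For the CNTF change in normal dogs the sign turned with quantile normalization (STMN2 -0.071), with median scaling (NEFM 0.037, NEFH 0.11 and NRN1 0.025), with the deposited values (STMN2 -0.086), with slide as the block (NEFM 0.12, NEFH 0.57 and NRN1 0.20), with slide and dog together (NEFH 0.11), with all probes of a gene averaged (RBPMS -0.049), with slide 3 only (UCHL1 -0.093). For the CNTF change in mutant dogs the sign turned with normexp background correction (UCHL1 -0.22 and STMN2 -0.14), with quantile normalization (UCHL1 -0.070), with median scaling (NRN1 0.037), with the deposited values (UCHL1 -0.068), with slide as the block (UCHL1 -0.014), with slide and dog together (UCHL1 -0.61), with all probes of a gene averaged (UCHL1 -0.041 and RBPMS -0.059). For the genotype difference of the change the sign turned with normexp background correction (NEFL -0.089 and NRN1 -0.067), with quantile normalization (STMN2 0.18), with the deposited values (STMN2 0.17), with slide as the block (GAP43 0.039 and NRN1 -0.33), with slide and dog together (NRN1 -0.027), with all probes of a gene averaged (NEFL -0.021). For the genotype difference in PBS eyes the sign turned with quantile normalization (STMN2 -0.11), with median scaling (NRN1 0.020), with the deposited values (STMN2 -0.13), with slide as the block (NEFL 0.12 and NRN1 0.34), with all probes of a gene averaged (NEFL 0.076 and RBPMS -0.16). For the genotype difference in CNTF eyes the sign turned with normexp background correction (THY1 -0.18, NEFL -0.22, NEFM -0.16, NEFH -0.042, UCHL1 -0.13, STMN2 -0.23 and NRN1 -0.12), with the deposited values (SNCG 0.11 and NRN1 -0.0091), with outlier spots kept (SNCG 0.10), with slide as the block (THY1 -0.16, NEFM -0.011 and RBPMS -0.061), with male dogs only (THY1 -0.012 and NRN1 -0.072), with all probes of a gene averaged (RBPMS -0.17). Leaving out 1 dog at a time moved these values across 0: the CNTF change in normal dogs (NEFM -0.14 to 0.00031, NEFH -0.19 to 0.18), the CNTF change in mutant dogs (UCHL1 -0.012 to 0.068, NRN1 -0.098 to 0.028), the genotype difference of the change (NRN1 -0.025 to 0.16, NEFL -0.0033 to 0.30, STMN2 -0.21 to 0.015), the genotype difference in PBS eyes (NEFL -0.18 to 0.0032, NRN1 -0.15 to 0.078), the genotype difference in CNTF eyes (SNCG -0.23 to 0.065, GAP43 -0.0022 to 0.12, THY1 -0.014 to 0.10, NEFM -0.073 to 0.16, UCHL1 -0.047 to 0.21, STMN2 -0.010 to 0.12, RBPMS -0.034 to 0.14, NRN1 -0.065 to 0.089, NEFL -0.028 to 0.12).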

Other observations

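The NEFL probe that is tied to the gene by its description and has no position in the files was above background in 3 PBS eyes of mutants and nowhere else. Its level in PBS eyes of mutant dogs 1 to 5 was -3.55, -2.65, -2.36, -6.56 and -6.87, with dogs 1 to 3 high, and in PBS eyes of normal dogs it was -6.73, -5.09, -6.08, -6.83 and -6.80. The PBS eyes of mutant dogs 1 to 3 share slide 2 with PBS normal dog 5, whose level was -6.80.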
